A study of Mus musculus with 14 samples.

Results

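The 9 genes described here are secreted signals of the BMP and TGF-beta family with a receptor and an extracellular antagonist: the ligands Bmp2, Bmp4, Bmp5, Bmp7, Tgfb1, Tgfb2 and Tgfb3, the type I receptor Bmpr1b, and the antagonist Grem1. They were given by name, as a list of 9 genes among the 40481 genes of the bulk count table, with earlier results of these data known. Although the list was labelled as ligands and antagonists, 7 members are ligands, 1 is an antagonist and 1 is a receptor. They were followed in bulk RNA-seq of the muscularis, the muscle coat of the gut separated by hand from the rest of the wall and flash frozen, and in single nuclei of the colon.

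All mice were C57BL/6. The genotypes were labelled Carmn iKO, written KO below, and WT mTmG, written WT below; Carmn is a long noncoding RNA of smooth muscle, and mTmG is a reporter allele that marks membranes with Tomato or GFP. Bulk libraries formed 4 groups of 3: colon WT (tags t1, t6, t7), colon KO (m1, t4, t6), jejunum WT (t1, t6, t7) and jejunum KO (m1, t1, t4). The nuclei, with RNA and open chromatin from the same nucleus, came from 1 colon library per genotype. The allele and driver of the deletion, any inducing treatment, age and sex are not stated in the labels, nor is whether libraries of a group came from separate mice, so p-values measure the spread between libraries, which may be technical.

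BMP and TGF-beta ligands are secreted dimers that assemble type I and type II receptor kinases, which phosphorylate Smad transcription factors: mainly Smad1, Smad5 and Smad9 for BMPs, and Smad2 and Smad3 for TGF-betas. TGF-betas are secreted in a latent form held by their own propeptide and by binding proteins such as the LTBPs, while BMPs are held back by secreted antagonists such as gremlins, noggin and chordin. In the gut wall, cells of the muscle and mesenchyme secrete BMP antagonists around the crypt base, BMP signals favour differentiation towards the lumen, and TGF-beta is known for its part in matrix production and in the smooth muscle phenotype.

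The stretches upstream of 3 members are shown because the results turn on them: Bmp4 fell in the jejunum, Grem1 varied most between libraries, and Tgfb2 differed between the tissues. Each line gives the 250 bases before the annotated start, 5′ to 3′ on the gene's strand, from RefSeq (GRCm38.p6), with AGAC or its reverse complement GTCT, the core Smad-binding letters, in capitals.
Bmp4: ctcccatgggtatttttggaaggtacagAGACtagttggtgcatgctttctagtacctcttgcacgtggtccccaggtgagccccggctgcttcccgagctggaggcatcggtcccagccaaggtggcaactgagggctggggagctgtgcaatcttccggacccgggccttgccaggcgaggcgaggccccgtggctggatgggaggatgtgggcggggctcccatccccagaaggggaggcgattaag
Grem1: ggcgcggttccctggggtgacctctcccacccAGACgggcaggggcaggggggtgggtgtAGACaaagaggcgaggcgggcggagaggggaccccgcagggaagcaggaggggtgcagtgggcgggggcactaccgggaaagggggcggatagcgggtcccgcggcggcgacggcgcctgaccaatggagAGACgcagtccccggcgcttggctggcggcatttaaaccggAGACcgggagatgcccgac
Tgfb2: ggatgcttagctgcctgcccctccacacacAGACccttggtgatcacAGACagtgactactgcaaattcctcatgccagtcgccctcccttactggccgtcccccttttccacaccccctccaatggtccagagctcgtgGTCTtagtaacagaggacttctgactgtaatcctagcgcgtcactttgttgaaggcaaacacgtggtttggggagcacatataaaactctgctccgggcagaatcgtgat
The Bmp4 stretch is chr14:46390670-46390919, the Grem1 stretch chr2:113758649-113758898 and the Tgfb2 stretch chr1:186705990-186706239, all on the minus strand. The Bmp4 stretch held 1 Smad box at 63.2% GC, the Grem1 stretch 4 at 72.0% GC and the Tgfb2 stretch 3 at 53.6% GC. Of 32851 windows of this length in the same table, 82.9% held at least 1 such box, with a median of 2, so a match is common. Grem1 also held GGCGCC, found in 9.6% of windows on either strand, and a CCAAT box, found in 33.8% counting ATTGG; Tgfb2 held a CCAAT box and TATAAA, found in 12.4% counting TTTATA. The CArG box, the element bound by serum response factor, was in 1.5% of windows and in none of these 3. These matches are descriptions of letters, not of binding.

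Total counts ran from 24254905 to 44315104 per bulk library, and 20886 genes, all 9 members included, passed the filter on low counts. Levels are CPM, the counts of a gene scaled to a common library size. The targeted gene went against its label in bulk: Carmn was at 251.6, 171.5 and 351.5 CPM in the colon WT libraries and at 461.2, 303.9 and 717.9 CPM in those labelled KO, and at 205.8 to 326.2 CPM in jejunum WT and 817.5 to 996.1 CPM in those labelled KO. The labels do not say which part of Carmn was deleted. In smooth muscle-like nuclei Carmn was lower in the library labelled KO, at 639 CPM (95% Poisson interval 597.5 to 682) against 1678 (1625 to 1732). Directions below are therefore between libraries labelled KO and WT. The library colon KO t4 stood apart on the first principal component (27.95% of variance) and jejunum KO m1 on the second (17.4%). Summed fibroblast markers were 12880 CPM in colon KO t4 against 2686 to 5966 in the other colon libraries, and 7533 in jejunum KO m1 against 2889 to 3662 in the other jejunum libraries. A sum follows its most abundant markers, so single markers can differ from it. Pdgfra, on the same list, was at 231.7 CPM in colon KO t4 against 112.3 to 147.6 in the other colon libraries. In jejunum KO m1 Pdgfra was at 112 CPM, against 96.78 to 168.9 in the other jejunum libraries. Smooth muscle markers, all 10 of 10 in the table, summed to 51780 to 75570 CPM in colon WT and 34880 to 47530 CPM in colon KO, without overlap. In the jejunum they summed to 93640 CPM in KO m1 and to 48310 to 53350 CPM in the other libraries. Epithelial markers ran from 104.1 CPM (colon WT t7) to 4215 CPM (colon WT t6).

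Among the BMP ligands, Bmp4 was the 1 member that fell in the jejunum of mice labelled KO. Bmp4 (ENSMUSG00000021835, chr14:46383520-46390669, minus strand, GRCm38), a ligand made by gut mesenchyme, was at 44.7, 50.1 and 38.4 CPM in jejunum WT and at 10.5, 13.2 and 13.3 CPM in the jejunum libraries labelled KO. Every library labelled KO lay below every WT library. The means were 44.4 ± 5.89 CPM and 12.3 ± 1.59 CPM (SD, n = 3 each), a change of -1.85 on the log2 scale (SE 0.31; adjusted p = 0.0419, edgeR quasi-likelihood test with Benjamini-Hochberg adjustment over all genes), or 0.278 of the WT level. Bmp4 was the only member of 9 called in the jejunum, where 45 of 20886 genes, 0.215%, were called (26 higher, 0.124%, and 19 lower, 0.091%). The call is close to its threshold: without any 1 of the libraries other than colon KO t4 and colon KO t6 the adjusted p rose to between 0.0658 and 0.168, and without both libraries that stand apart it was 0.00763, with the change between -1.95 and -1.76 in all 20 alternatives. The Bmp4 call held in 9 of 20 alternatives, and it was also lost with scaling by total counts. In bulk tissue, fewer cells of a type and less RNA per cell cannot be told apart. Macrophage markers, all 8 of 8 in the table, summed to 160.1 to 368.4 CPM in jejunum WT and 530.1 to 1369 CPM in jejunum KO, and vascular mural markers (7 of 7) to 4095 to 5487 and 2171 to 3505 CPM. For the classes with the highest Bmp4 in WT colon nuclei (below), the sums overlapped between the genotypes. Fibroblast markers summed to 3055 to 3662 CPM in jejunum WT and 2889 to 7533 CPM in jejunum KO. Markers of interstitial cells of Cajal summed to 745.4 to 891.9 and 448.7 to 827.1 CPM, and mesothelial markers to 981.9 to 2032 and 552.1 to 1429 CPM. The part of any of these classes in the Bmp4 change was not tested.

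In the colon Bmp4 was at 27.9, 26.9 and 30.1 CPM in WT and at 16.0, 7.98 and 23.2 CPM in the libraries labelled KO. These groups did not overlap either, but the KO libraries spread widely, with colon KO t4 lowest. The change of -0.85 (SE 0.30) did not pass edgeR's quasi-likelihood test after Benjamini-Hochberg adjustment (adjusted p = 0.232). Bmp4 was the only member of 9 without overlap in the colon, where 19.2% of all genes had none. No member of 9 was called there by edgeR, DESeq2 or limma voom, against 0.388% of genes by edgeR (24 higher, 0.115%, and 57 lower, 0.273%); 2 of 9, Bmp4 and Tgfb1, were under 0.05 before adjustment by edgeR, against 14.5% of genes. The Bmp4 changes in the 2 tissues differed by 0.997 on the log2 scale (SE 0.42), which did not pass (adjusted p = 0.940, edgeR).

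**Figure D1:**
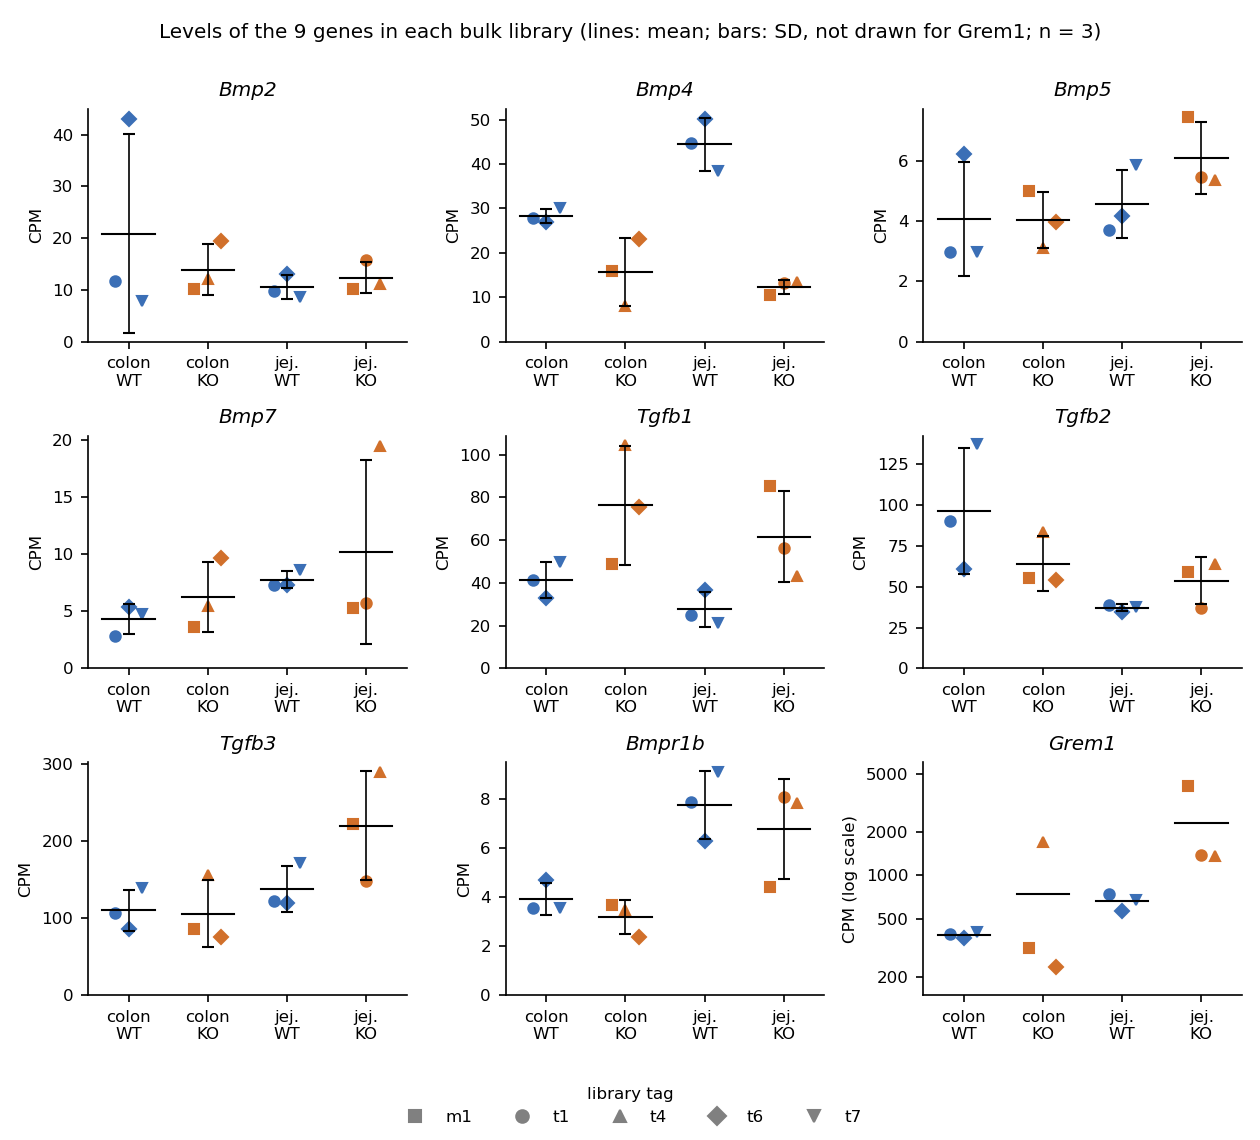
CPM of the 9 genes in each bulk library by group (jej., jejunum), with a symbol for each library tag, a line for the group mean and bars of 1 SD (n = 3; Grem1 on a log axis without SD). Bmp4 lies at 38.4 to 50.1 CPM in jejunum WT and 10.5 to 13.3 CPM in jejunum KO, and Grem1 reaches 4127 CPM in 1 jejunum KO library.

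The other BMP ligands were low and showed no call by genotype. Bmp2 (ENSMUSG00000027358, chr2:133552159-133562885), a ligand of gut mesenchyme and epithelium, was at 11.7, 43.0 and 7.92 CPM in colon WT and 10.2, 12.04 and 19.5 CPM in colon KO. The value of 43.0 CPM came from colon WT t6, the library with the highest sum of epithelial markers, and without that library the colon change of -0.59 (SE 0.53) became 0.52. In the jejunum Bmp2 was at 8.66 to 13.1 CPM in WT and 10.2 to 15.7 CPM in KO. Bmp5 (ENSMUSG00000032179, chr9:75775364-75900310), a ligand best known from skeletal development, was at 2.97 to 6.24 CPM in colon WT, 3.12 to 4.99 CPM in colon KO, 3.72 to 5.86 CPM in jejunum WT and 5.37 to 7.46 CPM in jejunum KO. Its groups overlapped in both tissues, and its changes of -0.01 (SE 0.36) and 0.41 (SE 0.36) were about as large as their errors or smaller. Bmp7 (ENSMUSG00000008999, chr2:172868012-172940321), a ligand known from kidney and other epithelia, was at 2.84 to 5.36 CPM in colon WT and 3.65 to 9.62 CPM in colon KO. In the jejunum it was at 7.33, 7.31 and 8.63 CPM in WT and 5.33, 5.72 and 19.5 CPM in KO. The jejunum mean in KO rested on t4: without it the change of 0.40 (SE 0.51) turned to -0.50.

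Among the TGF-beta ligands, Tgfb1 had higher means under the KO label in both tissues without passing the adjusted test. Tgfb1 (ENSMUSG00000002603, chr7:25687002-25705077), the isoform common in immune and mesenchymal cells, was at 24.8, 36.9 and 21.2 CPM in jejunum WT and 85.3, 56.3 and 43.4 CPM in jejunum KO. All 3 KO libraries lay above the WT libraries, with m1 highest. The means were 27.6 ± 8.19 CPM and 61.7 ± 21.5 CPM (SD, n = 3 each), a change of 1.16 (SE 0.33; adjusted p = 0.174, edgeR), and DESeq2 alone called it (adjusted p = 0.0406). In the colon Tgfb1 was at 41.6, 32.7 and 49.7 CPM in WT and 48.9, 105 and 75.4 CPM in KO, groups that overlapped between 48.9 and 49.7 CPM. The colon change was 0.88 (SE 0.33; adjusted p = 0.244, edgeR). The highest KO library was t4 in the colon and m1 in the jejunum, the 2 libraries with the highest macrophage sums of their tissues, 1101 and 1369 CPM; the part of macrophages in the Tgfb1 values was not tested.

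Tgfb2 was higher in colon than in jejunum, and its estimates by genotype had opposite signs in the 2 tissues. Tgfb2 (ENSMUSG00000039239, chr1:186622792-186705989), an isoform found in nerve, glia and smooth muscle, was at 90.4, 60.7 and 137 CPM in colon WT and 55.0, 83.7 and 53.8 CPM in colon KO. In the jejunum it was at 38.7, 34.6 and 37.8 CPM in WT and 59.3, 37.1 and 64.1 CPM in KO. The groups overlapped in both tissues, and neither the colon change of -0.58 (SE 0.30; adjusted p = 0.398) nor the jejunum change of 0.53 (SE 0.30; adjusted p = 0.474) passed edgeR's test. The difference between these changes was -1.11 (SE 0.42), under 0.05 before adjustment but not after (adjusted p = 0.940, edgeR). Tgfb3 (ENSMUSG00000021253, chr12:86056745-86079041), the third isoform and the one with the highest level per length of these 3, was at 106, 85.3 and 139 CPM in colon WT and 85.8, 156 and 75.8 CPM in colon KO. In the jejunum it was at 122, 119 and 172 CPM in WT and 222, 148 and 289 CPM in KO. The jejunum groups overlapped through KO t1, and the change of 0.67 (SE 0.32; adjusted p = 0.399, edgeR) did not pass. The 3 isoforms differed in colon sign: Tgfb1 0.88, Tgfb2 -0.58 and Tgfb3 -0.06, while in the jejunum all 3 estimates were positive.

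The receptor Bmpr1b (ENSMUSG00000052430, chr3:141837136-142169425), a kinase that carries BMP and GDF5 signals in cartilage and the ovary, was low in bulk. It was at 3.55, 4.67 and 3.55 CPM in colon WT and 3.67, 3.47 and 2.38 CPM in colon KO. In the jejunum it was at 7.85, 6.29 and 9.08 CPM in WT and 4.42, 8.08 and 7.83 CPM in KO. Groups overlapped by genotype in both tissues, with changes of -0.31 (SE 0.31) and -0.19 (SE 0.30). The jejunum value rested on m1, without which it was 0.01.

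The antagonist Grem1 (ENSMUSG00000074934, chr2:113746164-113758646), which binds BMP2, BMP4 and BMP7 outside the cell, had the widest spread. It was at 748, 572 and 673 CPM in jejunum WT and at 4127, 1386 and 1361 CPM in the jejunum libraries labelled KO. All 3 KO libraries were above all WT libraries, and m1 was far above the other KO libraries. The change was 1.79 (SE 0.69; adjusted p = 0.301, edgeR), 3.45 times the WT level. Without m1 the change was 1.02 (adjusted p = 0.708, edgeR), and without both libraries that stand apart it was 1.02 and called (adjusted p = 0.0381, edgeR). In the colon Grem1 was at 394, 369 and 407 CPM in WT and 319, 1695 and 235 CPM in KO. Here the groups overlapped and the sign depended on 1 library: the change was 0.94 (SE 0.67; adjusted p = 0.565, edgeR) with t4, and -0.49 without it. The 2 high libraries, colon KO t4 and jejunum KO m1, are those with the highest fibroblast sums of their tissues. Jejunum KO m1 also had the highest smooth muscle sum of its tissue, 93640 CPM, and colon KO t4 the lowest of its tissue, 34880 CPM. The part of fibroblasts or smooth muscle in Grem1 was not tested. In the jejunum 3 of 9 members, Bmp4, Tgfb1 and Grem1, had groups without overlap, against 22.2% of all genes.

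**Figure D2:**
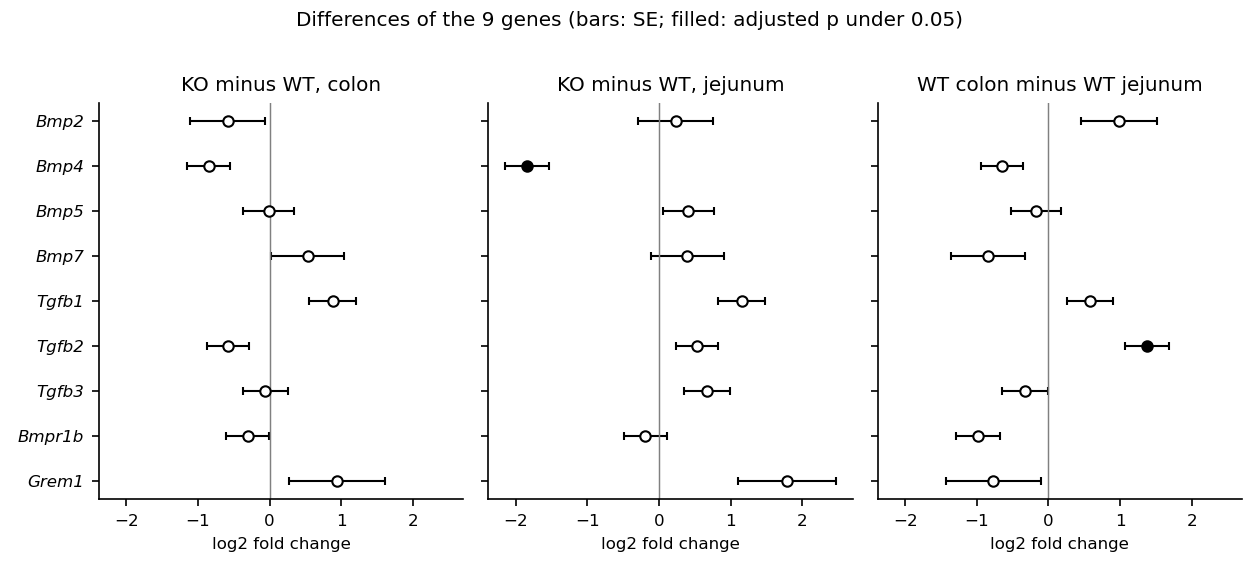
Log2 fold change of each of the 9 genes between libraries labelled KO and WT in colon and jejunum, and between WT colon and WT jejunum, with bars of 1 standard error from the edgeR fit on 12 libraries. The filled points, past the adjusted threshold, are Bmp4 in the jejunum at -1.85 and Tgfb2 between the WT tissues at 1.38.

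Over the 9 members, 3 estimates were positive in the colon (median -0.06) and 7 in the jejunum (median 0.41), beside medians over all tested genes of 0.00426 and 0.0178. None of 9 members differed between the tissues in its change by genotype, where 0% of genes were called by edgeR; 2 of 9, Bmp4 and Tgfb2, were under 0.05 before adjustment against 869 genes or 4.16%, and DESeq2 called 37 genes and no member.

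Between WT colon and WT jejunum, Tgfb2 was the 1 member called, among 325 genes or 1.56% (145 higher, 0.694%, and 180 lower, 0.862%, in the colon; scaled by total counts, 158 higher and 111 lower). It was higher in the colon, at 96.1 ± 38.6 CPM against 37.0 ± 2.15 CPM (SD, n = 3 each), a change of 1.38 (SE 0.30; adjusted p = 0.0485, edgeR) or 2.60 times. All 3 colon libraries were above the jejunum libraries, with t7 highest. The direction held in 21 of 21 alternatives and the call in 8 of 21. Of the libraries left out 1 at a time, the call held without colon WT t6 or colon KO t4, and without colon WT t7 the change was 0.97 (adjusted p = 0.126, edgeR). Enteric glia markers (6 of 6 in the table) summed to 143.7 to 199.2 CPM in colon WT and 100.9 to 121.2 CPM in jejunum WT; their part in the Tgfb2 difference was not tested. Bmp4, Bmp7, Bmpr1b and Grem1 were lower in all 3 colon WT libraries than in all 3 jejunum WT libraries, so that 5 of 9 members had no overlap, against 22.9% of all genes. Their changes were -0.65 (SE 0.30) for Bmp4, -0.84 (SE 0.51) for Bmp7, -0.98 (SE 0.31) for Bmpr1b and -0.77 (SE 0.67) for Grem1. None of these 4 passed the adjusted test, the lowest adjusted p being 0.167 for Bmpr1b (edgeR). Fitted without colon KO t4 and jejunum KO m1, Bmp4 (adjusted p = 0.0415), Bmpr1b (0.0475) and Grem1 (0.0176) were called by edgeR.

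Per length, as CPM per kilobase of exon, the antagonist stood above every ligand. In colon WT the order of levels was Grem1 at 94.0 ± 4.69, Tgfb3 at 32.5 ± 7.93, Tgfb2 at 16.6 ± 6.67, Bmp4 at 12.6 ± 0.724, Tgfb1 at 8.20 ± 1.69 and Bmp2 at 5.87 ± 5.41 (SD, n = 3). Bmp7 at 1.08 ± 0.327, Bmp5 at 1.01 ± 0.469 and Bmpr1b at 0.658 ± 0.108 closed it and did not differ from each other beyond their spread; neither did Tgfb2 from Bmp4, nor Bmp2 from Tgfb1 above it or Bmp7 below it. In jejunum WT Grem1 at 160.1 ± 21.3 and Tgfb3 at 40.7 ± 8.69 led again, but Bmp4 at 19.8 ± 2.62 came before Tgfb2 at 6.39 ± 0.371 and Tgfb1 at 5.48 ± 1.63, which did not differ beyond their spread. Under the KO label in the jejunum Bmp4, at 5.49 ± 0.708, stood below Tgfb1 at 12.2 ± 4.26 and Tgfb2 at 9.24 ± 2.48.

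For each member, the 3 most similar profiles by Pearson's r of log2 CPM over the 12 libraries were taken among genes whose mean log2 CPM was 1 or more. For Bmp4 they were Stk39 (r = 0.986), Zfp39 (0.960) and Cstf2t (0.959), the closest match of any member. For Tgfb1 they were Lrrc32 (0.977), which anchors latent TGF-beta at the cell surface, Gadd45g (0.971) and Tpst2 (0.969). For Tgfb3 they were Myocd (0.918), the smooth muscle coactivator myocardin, Ift43 (0.912) and Gjb5 (0.911), and for Tgfb2 D030028A08Rik (0.924), Plpp1 (0.920) and Nr4a3 (0.911). For Grem1 they were Kctd10 (0.943), Pitpna (0.931) and Ppp1ca (0.920), and for Bmpr1b Dennd4c (0.936), Ctso (0.933) and Atp2b1 (0.932). For Bmp2 they were Igkv6-13 (0.915), Adh1 (0.895) and Car2 (0.890), of which Car2 is abundant in colon epithelium. For Bmp7 they were Tmpo (0.923), Zbtb7c (0.894) and Zdbf2 (0.881), and for Bmp5 Strbp (0.880), Eda2r (0.863) and Phf11d (0.818). These are the highest of 14280 genes, and the points share the 4 groups and the 2 libraries that stand apart.

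Around the members, 79 other genes of the pathway were listed, and 75 were tested. In the colon 2 of 75 were called lower under the KO label and none higher, against 0.273% and 0.115% of all genes. Both were receptors. Acvr2a, a type II receptor for activins and BMPs, was at 54.8, 52.1 and 54.3 CPM in colon WT and 31.7, 30.04 and 30.4 CPM in KO (change -0.81, SE 0.14; adjusted p = 0.0349, edgeR). Bmpr1a, the type I receptor that binds BMP2 and BMP4, was at 205, 214 and 248 CPM in WT and 136, 124.5 and 99.1 CPM in KO (change -0.89, SE 0.17; adjusted p = 0.0499, edgeR). Each was called in 7 of 20 alternatives with the direction unchanged in all 20, and the adjusted p reached 0.180 for Acvr2a and 0.242 for Bmpr1a. Of the libraries left out 1 at a time, both calls held without colon KO m1 or jejunum KO m1, and neither without any other. The summed smooth muscle markers were lower in all 3 colon KO libraries than in all 3 WT libraries (above), and Bmpr1a was at 692 CPM in WT smooth muscle-like nuclei against 435 over all WT nuclei; their part in these falls was not tested. In the jejunum Acvr2a had an estimate of -0.39 (SE 0.14) and Bmpr1a one of -0.50 (SE 0.16), neither past the adjusted test (0.248 and 0.223, edgeR).

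Estimates in the list leaned towards positive values: 56 of 75 were above 0 in the colon (median 0.38) and 53 of 75 in the jejunum (median 0.21). Over all 20886 genes tested, 10497 were above 0 in the colon and 10764 in the jejunum. Colon KO t4 and jejunum KO m1, with the highest fibroblast sums of their tissues, enter these estimates, and their part in the lean was not tested. By role, the 12 target genes of the pathway had the highest medians, 0.73 in the colon (11 of 12 positive) and 0.58 in the jejunum (10 of 12), and the 12 other receptors among the lowest, 0.16 and 0.10. In the colon 21 of 75 were under 0.05 before adjustment by edgeR, 17 higher and 4 lower (14.5% of all genes were). DESeq2 called 9 of 75 in the colon, beside 960 of all 20886 genes tested. In the jejunum 0 of 75 passed edgeR's test (0.215% of all genes did), with 16 under 0.05 before adjustment (13.2% of all genes were). DESeq2 called 6 of 75 in the jejunum, beside 805 of all 20886 genes tested. The 3 positive estimates with the smallest p there were Ccn2, a matrix protein induced by TGF-beta (2.51, SE 0.64; adjusted p = 0.144), Tgfbi, another such protein (1.73, SE 0.47; adjusted p = 0.157), and Lrrc32 (1.44, SE 0.40; adjusted p = 0.165), by edgeR. Ccn2 was at 68.6, 56.5 and 49.8 CPM in jejunum WT and 656, 161 and 181 CPM in KO, with m1 highest. The lowest p on the other side belonged to Smurf2, a ubiquitin ligase that acts on the receptors (-0.58, SE 0.13; adjusted p = 0.0992, edgeR). For the difference between tissues 0 of 75 were called by edgeR, beside 0% of all genes. Before adjustment 3 of 75 were under 0.05, near the share of 4.16% over all genes. These were Bmp3, Chrd and Bambi, at 0.89, 0.91 and 0.96. The most negative by p were Acvr2a, Bmpr1a and Bmp8a at -0.41, -0.39 and -1.57 (each adjusted p = 0.940, edgeR). Between the WT tissues 1 of 75 was called, against 1.56% of all genes: Ltbp2, of the latent TGF-beta binding protein family. Ltbp2 was at 11.4, 13.8 and 16.3 CPM in colon WT and 80.5, 131 and 110.1 CPM in jejunum WT (-2.96, SE 0.49, adjusted p = 0.0172, edgeR). It was called in 18 of 21 alternatives but not without colon WT t1, colon WT t6 or jejunum WT t6.

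**Figure D3:**
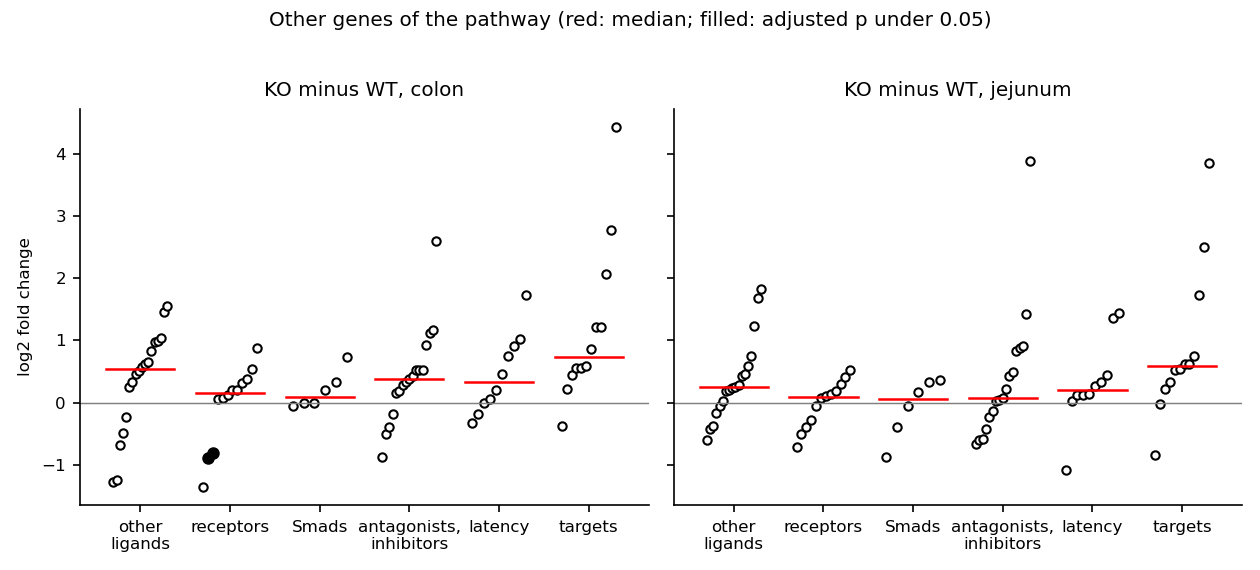
Log2 fold change between libraries labelled KO and WT for the 75 tested genes of the pathway list, grouped by role, in colon and jejunum, with red lines for medians and filled points for genes past the adjusted threshold. The filled points are Bmpr1a at -0.89 and Acvr2a at -0.81 in the colon, and most other points lie above 0.

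The colon nuclei placed the members in cell classes. After filtering, 2632 WT and 1585 KO nuclei remained, with medians of 1698 and 1981 UMIs; levels below are CPM, here taken over all UMIs of a class of nuclei, with 95% exact Poisson intervals that cover counting error only. Class names come from marker genes and carry "-like" for that reason. With 1 library per genotype there is no test between genotypes, and 11 barcodes were shared by both libraries. Smooth muscle-like nuclei numbered 830 in WT and 398 in KO, enteric glia-like 477 and 183, mesothelial-like 343 and 257, fibroblast-like 134 and 134, and macrophage-like 49 and 146. The unnamed nuclei of 2 clusters, 139 and 64, are in none of the classes below. They held 28.1% and 23.8% of the Bmp4 UMIs, 37.0% and 32.4% of those of Bmp7, and 44.4% and 17.6% of those of Grem1.

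**Figure D4:**
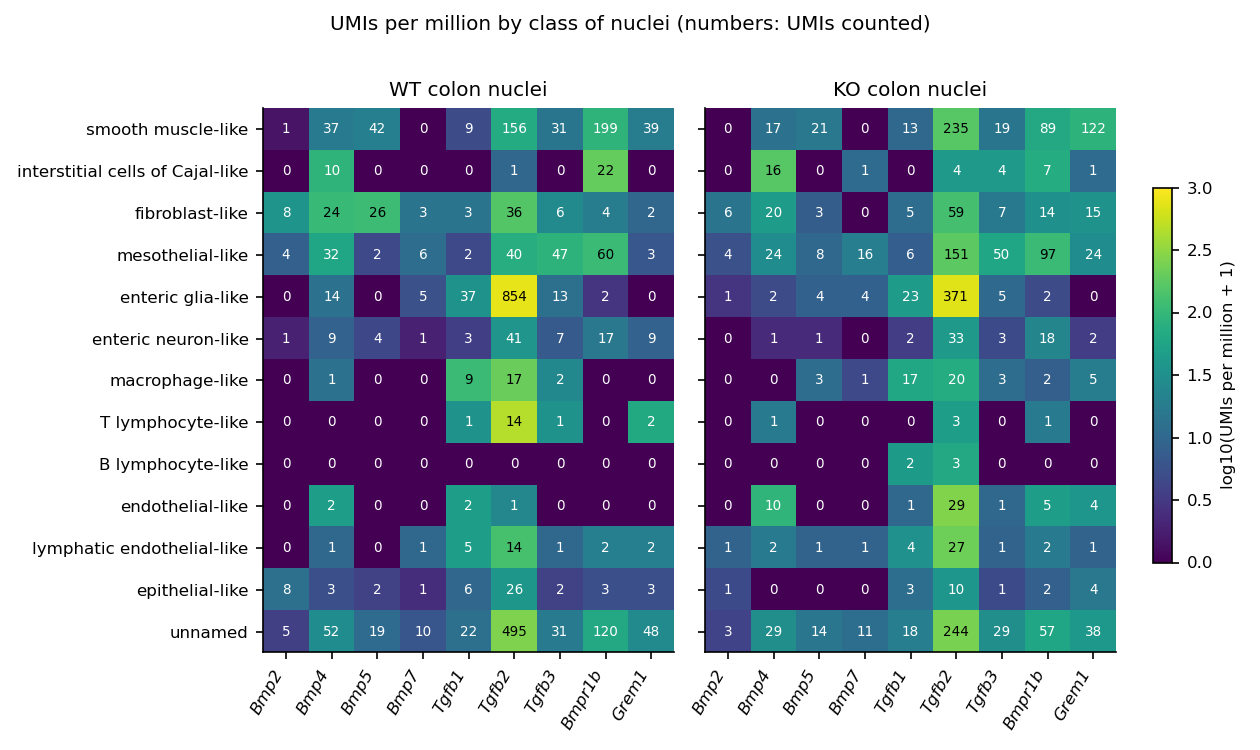
Level of the 9 genes in each class of colon nuclei in the WT and KO libraries, coloured by the log10 of CPM + 1, with the number of UMIs counted in each cell of the grid. Tgfb2 is brightest in enteric glia-like nuclei, with 854 and 371 UMIs, and Grem1 in smooth muscle-like nuclei has 39 UMIs in WT and 122 in KO.

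Bmp4 in WT nuclei was highest in fibroblast-like nuclei and in those like interstitial cells of Cajal, the gut's pacemaker cells (Cajal-like), and in KO nuclei in Cajal-like and endothelial-like ones. In the WT library it was at 105 CPM in fibroblast-like nuclei (67.6 to 157; 24 UMIs), 88.8 in Cajal-like nuclei (42.6 to 163; 10 UMIs), 58.4 in mesothelial-like nuclei (39.9 to 82.4) and 16.4 in smooth muscle-like nuclei (11.5 to 22.6). In the KO library the same classes stood at 43.9 (26.8 to 67.8), 164 (93.5 to 266), 27.6 (17.7 to 41.0) and 12.1 (7.04 to 19.3), and endothelial-like nuclei at 91.6 (43.9 to 168.5; 10 UMIs in 8 of 37 nuclei). Fibroblast-like nuclei were thus lower and Cajal-like nuclei higher in the KO library, with intervals that overlap. At resolution 2.0 the fibroblast-like nuclei split into a cluster of 93 WT and 32 KO nuclei and a cluster of 41 WT and 102 KO nuclei, so the class is made up differently in the 2 libraries. Bmp4 in the second of these was at 96.7 (44.2 to 183.5) in WT and 49.6 (30.3 to 76.5) in KO. Over all nuclei the level was 22.4 (19.3 to 25.9) in WT and 20.2 (16.8 to 24.1) in KO, beside the bulk colon means of 28.3 and 15.7 CPM. Thinned to 1000 UMIs per nucleus, Bmp4 was detected in 13.1% of WT and 0.917% of KO fibroblast-like nuclei, and unthinned in 14.2% and 9.70%. Median depth there was 1316 UMIs in WT and 2258.5 in KO.

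The other BMP ligands rested on few UMIs. Bmp5 was at 114 CPM in WT fibroblast-like nuclei (74.6 to 167; 26 UMIs in 9 nuclei) and 6.58 in KO (1.36 to 19.2; 3 UMIs). In the cluster of 41 WT and 102 KO fibroblast-like nuclei alone it was at 247 (157 to 371; 23 UMIs) and 7.43 (1.53 to 21.7; 3 UMIs). In smooth muscle-like nuclei it was at 18.6 (13.4 to 25.1) and 14.9 (9.23 to 22.8), which overlap. Among smooth muscle-like clusters, Bmp5 was highest in cluster 14, the one that shows Hs3st4, at 54.0 (20 UMIs) and 99.9 (12 UMIs). Bmp2, with 27 and 16 UMIs in all, was highest in fibroblast-like nuclei, at 35.2 (15.2 to 69.3) and 13.2 (4.83 to 28.6). Bmp2 was at 11.8 in WT epithelial-like nuclei (5.08 to 23.2). Bmp7 was at 10.9 (4.02 to 23.8) and 18.4 (10.5 to 29.9) in mesothelial-like nuclei, and it had 0 UMIs in smooth muscle-like nuclei of both libraries. The exact interval there allows up to 1.63 CPM in WT and 2.62 CPM in KO.

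The 3 TGF-beta isoforms led in different classes. Tgfb1 was highest in macrophage-like nuclei, at 109 (50.0 to 207, 9 UMIs) in WT and 60.6 (35.3 to 97.1, 17 UMIs) in KO. Lymphatic endothelial-like nuclei were at 47.0 (15.3 to 109.7, 5 UMIs) and 32.0 (8.73 to 82.0, 4 UMIs). Enteric glia-like nuclei were at 33.3 (23.4 to 45.9) and 43.9 (27.8 to 65.8). These intervals overlap those of macrophage-like nuclei, except for enteric glia-like nuclei in WT. By number of UMIs, enteric glia-like nuclei held the largest share of Tgfb1, 37.4% and 24.5%, against 9.09% and 18.1% in macrophage-like nuclei. Tgfb3 was highest in mesothelial-like nuclei, at 85.8 (63.0 to 114) and 57.4 (42.6 to 75.7), and stood at 13.7 (9.32 to 19.5) and 13.5 (8.13 to 21.1) in smooth muscle-like nuclei. Tgfb2 was highest in enteric glia-like nuclei, at 768 (717 to 821; 854 UMIs) and 707 (637 to 783; 371 UMIs), or 50.4% and 31.2% of all its UMIs. There it was detected in 66.9% and 75.4% of nuclei (48.6% and 53.3% thinned; median depths 1831 and 2273 UMIs), against 3.60% and 3.68% of epithelial-like nuclei, a class that should hold little of it (median depths 1445 and 1347.5 UMIs).

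Tgfb2 in muscle and mesothelium was higher in the KO library. In smooth muscle-like nuclei it was at 69.0 in WT (58.6 to 80.7) and 166.9 in KO (146.3 to 189.7), and in mesothelial-like nuclei at 73.0 (52.2 to 99.4) and 173.5 (146.9 to 203). The intervals of the 2 libraries do not overlap in either class, but they cover counting error only. Detection differed less in muscle: Tgfb2 had a UMI in 13.7% of WT (114 nuclei) and 17.8% of KO (71 nuclei) smooth muscle-like nuclei, or 6.38% and 7.93% thinned, and in 11.4% and 27.2% of mesothelial-like nuclei, or 5.80% and 12.9% thinned. The smooth muscle-like clusters were filled unequally and did not all differ alike. Cluster 15 was at 111 (73.6 to 160) in WT and 308 (257 to 366) in KO, and cluster 13 at 83.7 (60.8 to 112) and 167 (125 to 219), but cluster 1 was at 125 (84.9 to 177) and 93.3 (69.2 to 123) and cluster 14 at 40.5 (22.7 to 66.8) and 24.99 (5.15 to 73.0). Cluster 0, at 44.0 in WT, held 238 WT and 3 KO nuclei. The name of cluster 1 is less certain: its mean log2 fold against the other nuclei was 1.23 for smooth muscle markers and 0.979 for vascular mural markers. Clusters that shared its top genes Ctla2a and Lrrc7 were unnamed at resolutions 0.5 and 2.0. Over all nuclei Tgfb2 was at 205 (195.5 to 215) and 197 (186 to 208), beside bulk colon means of 96.1 and 64.2 CPM. The higher level in smooth muscle-like nuclei of the KO library has the opposite sign to the bulk colon estimate, and glia-like nuclei, where the level is highest, were 477 of 2632 nuclei in WT and 183 of 1585 in KO.

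Among the smooth muscle-like clusters, Bmpr1b was concentrated in 1, the 1 that also shows Hs3st4, Dpp10 and Grin3a. That cluster, of 134 WT and 44 KO nuclei, was at 489 CPM in WT (420.4 to 566) and 566 in KO (439.8 to 718), so the genotypes were within counting error. Since the cluster was drawn from the same nuclei, its level is a description with no test. Mesothelial-like nuclei were at 109.5 (83.5 to 141) and 111 (90.4 to 136), and Cajal-like nuclei at 195 (122 to 296) and 71.6 (28.8 to 147.5). Enteric glia-like nuclei were at 1.80 and 3.81.

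Grem1 in nuclei was highest in smooth muscle-like nuclei of the KO library. It stood there at 86.7 CPM (72.0 to 103.5; 122 UMIs), against 17.3 (12.3 to 23.6; 39 UMIs) in the WT library. These levels depend on the clustering: they were 106 and 8.31 at resolution 0.5, where fewer nuclei carried the name (155 and 555), and 75.9 and 10.3 with doublets kept. The unnamed nuclei were at 38.5 in KO (38 UMIs) and 25.5 in WT (48 UMIs), the WT value being above that of smooth muscle-like nuclei. In smooth muscle-like nuclei Grem1 was detected in 12.3% of KO and 3.49% of WT nuclei (7.93% and 1.70% thinned, with median depths of 2521 and 2032.5 UMIs). It was detected in 0 of 183 KO and 0 of 477 WT enteric glia-like nuclei. By the exact binomial interval that allows a UMI in up to 1.996% and 0.7704% of them at this depth. It does not limit how many express Grem1. The 2 libraries filled the smooth muscle-like clusters unequally, as for Tgfb2. Within clusters the KO level was also higher: 74.6 (53.3 to 102) against 16.1 in cluster 1, 116.7 (82.2 to 161) against 15.2 (6.57 to 29.99) in cluster 13, and 99.9 (51.6 to 175) against 16.2 in cluster 14. Cluster 1 also scored on vascular mural markers, as given above. In cluster 15, which shows Postn and Fgf7, the levels were 79.3 (54.6 to 111) and 71.2 (42.2 to 113), within counting error. Fibroblast-like nuclei stood at 32.9 (18.4 to 54.3) in KO and 8.79 in WT (2 UMIs), and mesothelial-like nuclei at 27.6 (17.7 to 41.0) and 5.47 (3 UMIs). Over all nuclei Grem1 was at 35.8 (31.2 to 40.9) in KO and 13.1 (10.7 to 15.8) in WT. These levels rest on 216 UMIs in KO and 108 in WT. The bulk colon WT levels given above were many times the level in WT nuclei, and why was not tested. In the bulk colon, by contrast, 2 of 3 libraries labelled KO were below all 3 WT libraries.

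**Figure D5:**
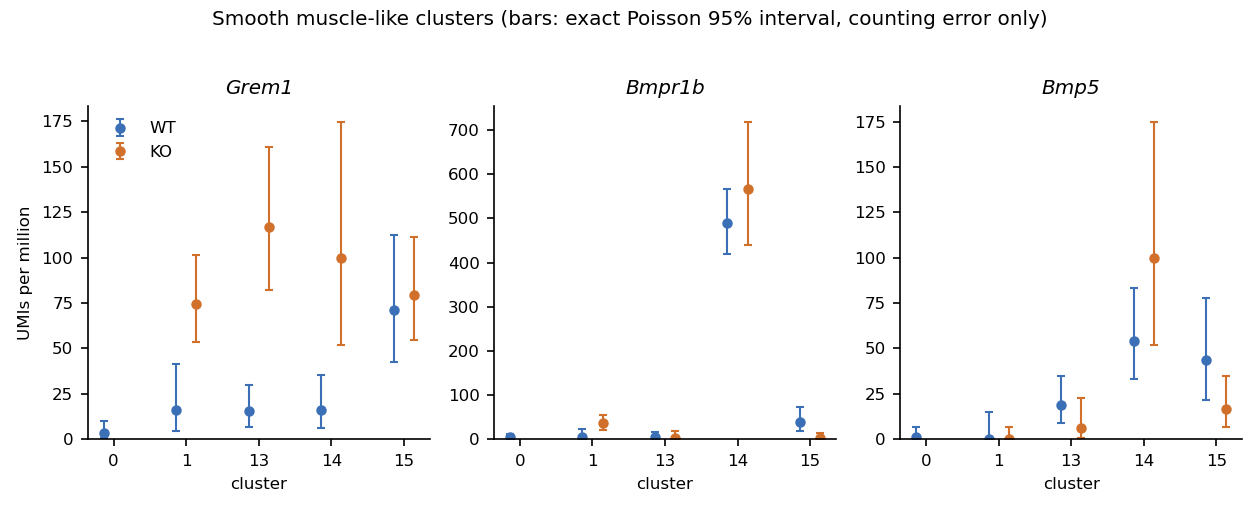
CPM of Grem1, Bmpr1b and Bmp5 in the 5 smooth muscle-like clusters of colon nuclei, for the WT and KO libraries, with 95% exact Poisson intervals (cluster 0 in WT only). Bmpr1b peaks in cluster 14 in both libraries (489 and 566), and Grem1 is higher in the KO library in clusters 1, 13 and 14 while its intervals overlap in cluster 15.

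Of the 2 receptors that fell in the bulk colon, neither had a level lower beyond counting error in smooth muscle-like nuclei of the KO library. Bmpr1a was at 692 CPM (658 to 727) in WT and 783.5 (738 to 831) in KO, higher and so opposite in sign to the bulk colon. Acvr2a was at 187 (169.7 to 206) in WT and 175.5 (154 to 199) in KO, with intervals that overlap.

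Open chromatin was called within 2000 bp of a start site for 5 members in the WT library and 1 in the KO library. In WT, regions spanned a start of Tgfb3 (chr12:86078491-86079924, with reads in 2.77% of nuclei), Tgfb1 (chr7:25688816-25689886, 2.13%), Tgfb2 (chr1:186705193-186705999, 2.09%), Bmp7 (chr2:172939867-172940843, 1.79%) and Bmpr1b (chr3:142168845-142169725, 1.22%). The Tgfb2 region ends inside the upstream stretch printed above. In KO the one region was at Tgfb1 (chr7:25688740-25689846), with reads in 3.28% of nuclei and in 12 of 146 macrophage-like nuclei, or 8.22% (exact binomial interval 4.32% to 13.9%). No region lay within that distance of Bmp2, Bmp4, Bmp5 or Grem1 in either library. By the same rule 62.7% of the 20886 tested genes had a region in WT and 53.8% in KO. Regions were called separately in each library, 35003 in WT and 26493 in KO, so a gene without a region in 1 library is not shown to be closed there.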

How the data were processed

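Bulk RNA-seq counts per gene, deposited by the authors as 1 table, were used as deposited; STAR 2.0.4b, featureCounts 1.4.5 (Subread) and GRCm38 are named in the submitters' processing notes, and strand handling was not given in the sources used here. Of 40757 rows, 276 repeats of a gene were dropped, and 0 value columns were without a sample. Libraries were compared with edgeR 4.0.16 (R 4.3.3): filter on low counts, TMM scaling, 1 mean per group over all 12 libraries, quasi-likelihood test, Benjamini-Hochberg threshold 0.05. CPM use the same scaling, and SEs are the change divided by the root of F. On simulated data, 43.3% of genes changed 4-fold and 4.17% of those changed 2-fold were recovered for the colon comparison, with 2 false calls.

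The deposited nuclei matrices of counts, made with Cell Ranger on mm10 per the submitters' processing notes, list even values for every gene, which were divided by 2. Nuclei with at least 500 UMIs and at most 5% mitochondrial UMIs were kept, Scrublet calls (7 in WT and 10 in KO) were removed, and nuclei were clustered with scanpy 1.11.5 at resolution 1.0 on 3000 variable genes. Scrublet marked 0.27% of WT and 0.63% of KO nuclei, so doublets may remain. Intervals cover counting error only.

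Named genes were the 9 members, each pathway list gene past the threshold (where none passed, the 3 with the smallest p in each direction), and the 3 most similar profiles. The members and lists were chosen with earlier results of these data known. Alternatives were other scalings and filters, DESeq2 1.42.0, limma 3.58.1 voom, a replicate block, leaving out each library, and, chosen after seeing the data, leaving out colon KO t4 and jejunum KO m1 together. RefSeq's table held starts for 6 of 9 members. Genes with overlapping annotation on exons (Bmp4, Bmp5, Tgfb2, Tgfb3) may share reads with their neighbours.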

Additional observations from a re-analysis of the deposited data

How the results depend on the processing

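Over the 9 members and 4 contrasts, 650 of the recomputed bulk values kept direction and call, 24 lost a call, 8 gained one and 38 changed sign; the cause was not tested. The Bmp5 change in the colon, near 0, was 0.0143 with total counts, 0.0159 without a filter, 0.0554 with voom, 0.0654 with voom and a replicate block, 0.0153 with only the 2 groups compared and 0.16 with 10 libraries. With 10 libraries Grem1 in the colon was -0.48, Bmpr1b in the jejunum 0.0126 and the Bmp7 difference between tissues -0.0336. Leaving out 1 library moved Bmp2 in the colon between -0.95 and 0.52, Bmp5 between -0.19 and 0.46, Tgfb3 between -0.44 and 0.17 and Grem1 between -0.49 and 1.41; in the jejunum Bmp7 between -0.50 and 0.67 and Bmpr1b between -0.35 and 0.0121. The differences between tissues moved for Bmp2 between -1.17 and 0.30, Bmp5 between -0.60 and 0.0642, Bmp7 between -0.28 and 1.06, Tgfb1 between -0.57 and 0.0875 and Bmpr1b between -0.29 and 0.0837, and Bmp2 between the WT tissues between -0.16 and 1.31. In the colon the sign turned for Bmp2 without colon WT t6, for Tgfb3 without colon WT t7, colon KO m1 or colon KO t6, and for Bmp5 without any 1 of 9 libraries (0.0108 to 0.462), those other than colon WT t1, colon WT t7 and colon KO m1.

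Genes called in the colon (81) were 960 with DESeq2, 0 with only the 2 groups (fewer libraries), 309 with 10 libraries and 7 to 180 without 1 library. In the jejunum (45) they were 26 with total counts, 805 with DESeq2, 76 with voom, 77 with voom and the replicate block, 21 with 2 groups, 145 with 10 libraries and 2 to 172 without 1 library. Differences between tissues (0) were 37 with DESeq2 and 0 to 1 without 1 library. Between the WT tissues (325) they were 1160 with DESeq2, 904 with 2 groups, 631 with the replicate block on tags, 1056 with 10 libraries and 79 to 557 without 1 library. Tags shared between tissues gave residual correlations of 0.10, -0.01 and 0.06 (WT) and -0.16 and -0.09 (KO), which does not meet the rule for pairing them; the labels do not say what a tag marks. Against voom without it, the voom block turned no member's call. Of the nuclei values, 78 stayed within counting error and 12 moved; Grem1 in smooth muscle-like WT nuclei was 10.3 with doublets kept and 8.31 at resolution 0.5, where KO was 106.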
